A study of Mus musculus with 6 samples.

Results

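Transcription factors of the Nkx, Pax, Lhx, Dbx, Irx and En families were compared between tissues of adult mice. The tissues were the dorsal root ganglia (DRG) of the lumbar region and the lumbar part of the spinal cord (SC). The set was defined by a naming rule. It took every probe set whose platform annotation names a single gene with a symbol made of a family name and a number, and it left out antisense transcripts. This gave 63 probe sets of 38 genes, among 45101 probe sets in all and 18191 genes tested. The 38 genes were 12 Nkx, 8 Pax, 8 Lhx, 6 Irx, 2 Dbx and 2 En genes. A single probe set stood for 22 genes, and 16 genes had several, up to 5. Where a gene had several, the brightest probe set stood for it, by its mean of log2(signal + 16) over the 6 arrays. The others are described further on.

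Both groups were male C57BL/6J mice of 3 months. DRG were collected in 3 independent pools of 4 mice each, SC likewise in 3 pools of 4, and each pool gave a single array. The starting material was total RNA, and the hybridised sample carried biotin. The left and right sides were pooled, and the label gives the lumbar levels as a block, so neither side nor segment can be told apart. Whether both tissues came from the same mice is not stated. The p-values therefore measure the spread between pools and not between single animals.

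Most, but not all, of these factors carry a homeodomain, a helical domain that binds DNA and most often contacts a TAAT core. In the embryonic neural tube, graded Sonic hedgehog from the ventral side and other signals from the dorsal side switch these genes on or off in bands of progenitors, and pairs of them repress each other at the band borders. Each band then gives rise to neurons that carry their own homeodomain factors, such as the LIM proteins Lhx1 and Lhx5 or En1. DRG neurons and glia arise from the neural crest and not from these bands, while some of the ventral factors are used again in cells of the oligodendrocyte lineage.

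Of the 38 genes, 13 passed the test and all 13 were lower in DRG than in SC (limma, adjusted p under 0.05), while 0 were higher in DRG. At an unadjusted p under 0.05 the counts were 0 higher in DRG and 15 higher in SC. Over all genes tested, 43.0% were called, 32.7% as higher in DRG and 10.2% as higher in SC. The members' direction was thus opposite to that of most calls on these arrays. Since these factors are dim, the genes at or below the median signal are a closer background. Of those, 18.5% were called, 10.8% as higher in DRG and 7.72% as higher in SC, against 0% and 34.2% of the members. With a log2 difference of at least 1 also required, 0 members were higher in DRG and 10 were higher in SC, beside 16.4% of all genes (11.6% higher in DRG, 4.84% higher in SC). The arrays of the tissues did not overlap for 2 members higher in DRG and 16 higher in SC, where 51.7% of all genes did not overlap (37.9% higher in DRG, 13.8% higher in SC). The median log2 difference, DRG minus SC, was -0.35 over the members and 0.18 over all genes.

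**Figure D1:**
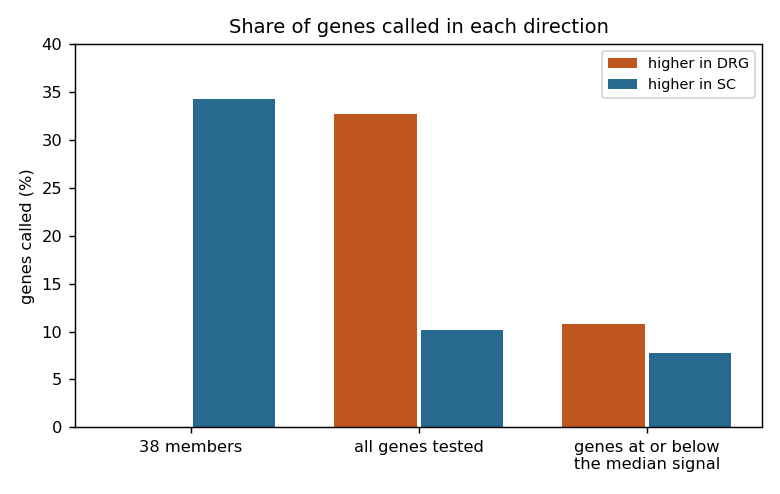
Share of genes called (%, vertical axis) as higher in DRG (left bars) or higher in SC (right bars) among the 38 members, all 18191 genes tested and the genes at or below the median signal. The members have no bar for DRG and reach 34.2% for SC, while all genes reach 32.7% for DRG and 10.2% for SC.

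The share of calls over all genes moved with the scaling of the arrays, and the members' direction did not. The authors had divided each array by its own factor, of 84.9, 89.5 and 84.5 for DRG and 110.5, 111.9 and 112.6 for SC. The signals before that scaling already had almost equal means once extremes were left out, 247.22 to 247.55 over the arrays, so they were not unscaled. Before the authors' scaling, 40.2% of genes were called, 19.7% as higher in DRG and 20.5% as higher in SC. The members gave 0 higher in DRG and 20 higher in SC. All genes then had a median of -0.10 and the members a median of -0.67. After quantile normalization 38.2% of genes were called, 21.4% as higher in DRG and 16.8% as higher in SC, and the members gave 0 and 13, with medians of 0.04 over all genes and -0.39 over the members.

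These were dim genes. Mean signals of the members, in arbitrary array units after the authors' scaling, ran over 5.03 to 158 in DRG with a median of 40.9 and over 3.26 to 257 in SC with a median of 61.6. The median of all genes was 176 in DRG and 154 in SC. Of the 38 genes, 37 lay below the median signal of all genes, with Nkx2-6 as the exception. As a background, 66 probe sets of 48 genes of liver, testis, pancreas, retina, pituitary and other distant tissues were used, and their 95th percentile was 109, 132 and 125 on the DRG arrays and 101, 97.6 and 147 on the SC arrays. No member exceeded this level on all 3 DRG arrays. On all 3 SC arrays 6 did, namely Nkx2-2, Nkx2-9, Irx3, Pax8, Pax5 and Nkx2-6. Of the 13 called genes, 6 (Nkx6-1, Pax3, Lhx1, Lhx2, Lhx5 and En1) never exceeded it on any array, so their calls are differences among signals that genes not expected in these tissues also reach. A fold is given, as a lower bound, only for a gene above the level on all arrays of one tissue and below it on all arrays of the other. Log2 differences are on the scale of log2(signal + 16), which makes the difference of a dim gene smaller than that of its signals.

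The tissue labels were checked against marker genes. All 7 measured sensory neuron markers were higher in DRG, with summed signals of 29714 to 30909 in DRG and 584 to 715 in SC, and all 4 Schwann cell markers were higher in DRG (sums of 20982 to 21825 in DRG and 3179 to 3801 in SC). Astrocyte markers (6 of 6, with sums of 3412 to 3443 in DRG and 25385 to 28991 in SC), inhibitory neuron markers (5 of 5), cholinergic motor neuron markers (4 of 5) and oligodendrocyte lineage markers (6 of 8) were lower in DRG than in SC. In bulk tissue, fewer cells of a type and less RNA per cell cannot be told apart, which holds for every difference here.

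The members were put in 4 groups by role, with earlier results of these data known. All 4 ventral progenitor factors passed as lower in DRG than in SC, and the median of their log2 differences was -2.23. Nkx2-2, which marks the most ventral progenitors and later acts in oligodendrocyte maturation, had the largest difference of all members. Its signals were 8.44, 12.3 and 4.07 in DRG, against 221, 269 and 281 in SC. Every SC array was above the background level and every DRG array far under it, and the tissues did not overlap. SC was at least 2.10-fold higher than the level on the DRG arrays, and the log2 difference was -3.50 ± 0.23 (SE, limma adjusted p = 1.9e-06).

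Nkx6-2, which acts in ventral progenitors and in myelinating oligodendrocytes, had signals of 7.05, 8.23 and 7.20 in DRG, against 113, 103 and 133 in SC. Only 2 of the 3 SC arrays exceeded the level, so no fold is given. The third had the highest signal, but the level was 147 there, against 101 and 97.6 on the first and second. The log2 difference was -2.49 ± 0.22 (limma adjusted p = 1.2e-05). Nkx2-9, a close relative of Nkx2-2 next to the floor plate, had 20.1, 26.3 and 18.9 in DRG and 110, 112 and 181 in SC. Its highest value was on the third SC array, and without overlap the difference was -1.96 ± 0.25 (limma adjusted p = 0.00016), with SC at least 1.07-fold higher. Nkx6-1, which sets the motor neuron progenitor domain and is also a pancreatic beta cell factor, had 8.67, 5.59 and 10.5 in DRG and 18.6, 42.4 and 33.0 in SC. All 6 values were under the level, the tissues did not overlap, and the difference was -0.94 ± 0.25 (limma adjusted p = 0.014). Without the second SC array its adjusted p was 0.052.

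Of the 8 oligodendrocyte lineage markers, 6 were lower in DRG, as the ventral factors were. Sox10, which Schwann cells and satellite glia also carry, differed by -0.0018 (1007.8 to 1174 in DRG, 1007.5 to 1171 in SC), and Pdgfra, of oligodendrocyte precursors and of fibroblasts, by -0.27, and neither passed (limma adjusted p = 0.99 and 0.073). Both were called lower in DRG before the authors' scaling (0.011 and 0.0011) and after quantile normalization (0.0020 and 0.0046). The markers' summed signals were 1697 to 1947 in DRG and 12487 to 13912 in SC, and the myelin gene Mog had at most 6.02 on each DRG array, the floor of the deposited ratios, and 1200 to 1313 in SC. The part of these cells in the difference of the ventral factors was not tested.

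The promoters of the 3 ventral genes with the lowest adjusted p are shown because these genes differed together. Each runs over 250 bases before and 50 after the start of the gene, 5′ to 3′ on the gene's own strand, from RefSeq on GRCm38.p6. They lie at chr2:147186353-147186652 for Nkx2-2, chr7:139582748-139583047 for Nkx6-2 and chr12:56613235-56613534 for Nkx2-9, all on the minus strand. Capitals mark the homeodomain core TAAT, the NK2 family motif TNAAGTG and the CCAAT box, each searched on both strands, so that their reverse complements are also in capitals.
Nkx2-2: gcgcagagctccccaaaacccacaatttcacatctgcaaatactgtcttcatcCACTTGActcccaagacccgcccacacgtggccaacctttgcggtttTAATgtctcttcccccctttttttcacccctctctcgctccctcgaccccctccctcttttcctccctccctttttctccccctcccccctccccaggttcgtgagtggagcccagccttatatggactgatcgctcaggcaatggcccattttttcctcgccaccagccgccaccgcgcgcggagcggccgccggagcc
Nkx6-2: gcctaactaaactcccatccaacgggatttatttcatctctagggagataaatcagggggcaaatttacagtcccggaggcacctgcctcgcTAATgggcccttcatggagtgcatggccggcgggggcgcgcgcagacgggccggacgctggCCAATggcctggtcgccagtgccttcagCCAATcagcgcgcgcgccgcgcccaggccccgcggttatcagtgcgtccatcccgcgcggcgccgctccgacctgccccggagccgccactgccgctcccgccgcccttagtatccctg
Nkx2-9: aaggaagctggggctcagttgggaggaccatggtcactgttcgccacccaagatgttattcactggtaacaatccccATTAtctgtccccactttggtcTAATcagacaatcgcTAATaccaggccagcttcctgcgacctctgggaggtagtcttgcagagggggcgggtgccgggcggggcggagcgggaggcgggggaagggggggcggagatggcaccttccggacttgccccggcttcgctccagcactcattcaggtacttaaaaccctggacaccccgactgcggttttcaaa

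The Nkx2-2 promoter held 1 TAAT and 1 TNAAGTG, the Nkx6-2 promoter 1 TAAT and 2 CCAAT, and the Nkx2-9 promoter 3 TAAT. No other match to these letters lay in the windows, and no matches overlapped. TAAT occurs in 58.0% of the 32851 promoters of the same length in the table, CCAAT in 37.4% and TNAAGTG in 11.5%. The letters alone say nothing of binding. A promoter was in the table for 29 of the 38 members.

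Of the 7 factors of intermediate and dorsal progenitors, 3 were lower in DRG than in SC (Pax3, Irx3 and Irx5), 0 were higher, and the median log2 difference was -0.62. Pax3, a factor of dorsal progenitors that also acts in the neural crest and in muscle precursors, had signals of 10.2, 5.05 and 18.6 in DRG, against 70.9, 97.5 and 104 in SC. None exceeded the level and the tissues did not overlap, and the log2 difference was -1.99 ± 0.27 (limma adjusted p = 0.00022). Irx5 had 47.1, 67.3 and 55.4 in DRG and 163, 120 and 117 in SC, with a difference of -1.04 ± 0.22 (limma adjusted p = 0.0037). Its first SC array was the highest, and 2 of 3 SC arrays exceeded the level, all but the third, where the level was 147.

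Irx3, an Iroquois factor that borders the motor neuron progenitors on their dorsal side, was the member with the most signal in DRG among those called. It had 134, 143 and 96.9 in DRG and 170, 224 and 202 in SC. Of the DRG arrays 2 exceeded the level, as did all SC arrays. The DRG mean was close to the level, so no fold is given, and the log2 difference was -0.62 ± 0.19 (limma adjusted p = 0.023). The call was lost without the third DRG array (adjusted p = 0.071), the second SC array (0.096) or the third SC array (0.070).

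Pax7, which partners Pax3 in dorsal progenitors and marks muscle satellite cells, went the other way on its brighter probe set only. That probe set had 74.2, 69.1 and 65.1 in DRG and 22.0, 49.4 and 59.5 in SC, without overlap and all under the level. The difference of 0.58 did not pass the test (95% interval -0.08 to 1.23, limma adjusted p = 0.15). The dimmer Pax7 probe set 1444596_at had 4.74, 5.38 and 5.58 in DRG and 14.6, 6.05 and 7.24 in SC, a difference of -0.24 (limma adjusted p = 0.41), and the mean of both gave 0.17. Among 10 markers of muscle, 1 was called higher in DRG (Myf6) and 1 higher in SC (Myh2, lost without DRG array 1 or 2 or SC array 2 or 3, limma adjusted p = 0.060 to 0.075), with sums of 487 to 1677 in DRG and 574 to 2093 in SC. Before the authors' scaling 1 muscle marker was higher in DRG and 2 higher in SC. Dbx2, a factor of the intermediate domains, had 19.7, 28.3 and 1.74 in DRG and 31.2, 37.4 and 69.1 in SC. Its arrays did not overlap, and its difference of -0.98 missed the threshold (interval -1.83 to -0.13, limma adjusted p = 0.065), as did that of Dbx1 (-0.33, interval -1.12 to 0.45). Pax6, which acts in intermediate progenitors and in the eye, differed by 0.13 on its brightest probe set (interval -0.48 to 0.74), and its other probe sets gave different values.

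Of the 9 factors that mark classes of spinal neurons, 5 were lower in DRG than in SC (Lhx1, Lhx2, Lhx5, En1 and Pax8), 0 were higher, and all 9 differences were negative, with a median of -0.93. Pax2 was also planned for this group, but no probe set of it was found by the naming rule. Lhx1, a LIM homeodomain factor of inhibitory and other interneurons, had signals of 6.36, 5.16 and 4.18 in DRG, against 72.6, 74.3 and 57.4 in SC. The 3 DRG values lay close together and far under those of SC, and the difference was -1.98 ± 0.22 (limma adjusted p = 5.3e-05). Lhx5, its close relative in the same dorsal interneurons, had 19.0, 60.7 and 26.1 in DRG and 96.0, 86.1 and 71.3 in SC. Its second DRG array stood apart from the other DRG arrays but did not reach SC, and the difference was -1.05 ± 0.31 (limma adjusted p = 0.023).

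En1 marks ventral V1 inhibitory interneurons, which include Renshaw cells. It had 6.59, 39.4 and 9.41 in DRG and 46.1, 51.1 and 53.6 in SC, with the second DRG array again the highest of its tissue. The difference was -1.06 ± 0.34 (limma adjusted p = 0.031). These calls rested on few arrays. Without the second DRG array the adjusted p of En1 was 0.0015, but without any other single array it lay between 0.062 and 0.11, and that of Lhx5 was 0.063 to 0.078 without DRG array 1 or 3 or SC array 1 or 2.

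Lhx2, a factor of dorsal commissural neurons, had 4.28, 7.79 and 3.02 in DRG and 45.9, 19.7 and 42.2 in SC, a difference of -1.27 ± 0.27 (limma adjusted p = 0.0034). All 6 values were under the level, and the second SC array was the lowest of SC. Its partner in those neurons, Lhx9, differed by -0.22 (interval -0.85 to 0.40) and did not pass. Pax8, which acts with other Pax factors in inhibitory interneurons and in thyroid and kidney, had 90.8, 117 and 81.3 in DRG and 201, 175 and 147 in SC. All SC arrays exceeded the level and no DRG array did, SC was at least 1.42-fold higher, and the difference was -0.76 ± 0.19 (limma adjusted p = 0.010). Of the 4 measured markers of kidney or thyroid, 0 were called (1 at an unadjusted p under 0.05 in limma, and 1, Tg, as higher in DRG after quantile normalization), and their sums were 158 to 262 in DRG and 161 to 197 in SC.

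Pax5, a factor of inhibitory interneurons and of B cells, had 134, 119 and 95.6 in DRG and 148, 120 and 150 in SC. Values of the tissues overlapped, and the difference of -0.24 did not pass (interval -0.66 to 0.19, limma adjusted p = 0.36). Of 5 markers of B cells and blood, 1 (Ighm, -0.49, but 0.17 as the mean of its probe sets) was lower in DRG than in SC and 0 were higher, with sums of 732 to 938 in DRG and 1030 to 1089 in SC. Lhx3 and Lhx4 act in motor neurons and V2 interneurons. Lhx3 had 117, 47.9 and 23.8 in DRG and 169, 105 and 89.4 in SC, which overlap, and its difference of -0.93 did not pass (interval -1.88 to 0.01, limma adjusted p = 0.11), nor did that of Lhx4 (-0.13, interval -0.87 to 0.61).

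Markers of mature neurons were called lower in DRG than in SC for 5 of 5 inhibitory and 4 of 5 cholinergic genes. Their signals are given as sums over genes, which cannot be set against the signals of single factors. The 5 inhibitory neuron markers summed to 126 to 161 in DRG and 6655 to 7115 in SC, and the 5 cholinergic motor neuron markers to 190 to 260 in DRG and 1492 to 1697 in SC. What part these neurons had in the difference of the factors was not tested. In adult tissue the factors of the classes were thus at 3.02 to 117 in DRG for the 5 called, and at 19.7 to 201 in SC.

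**Figure D2:**
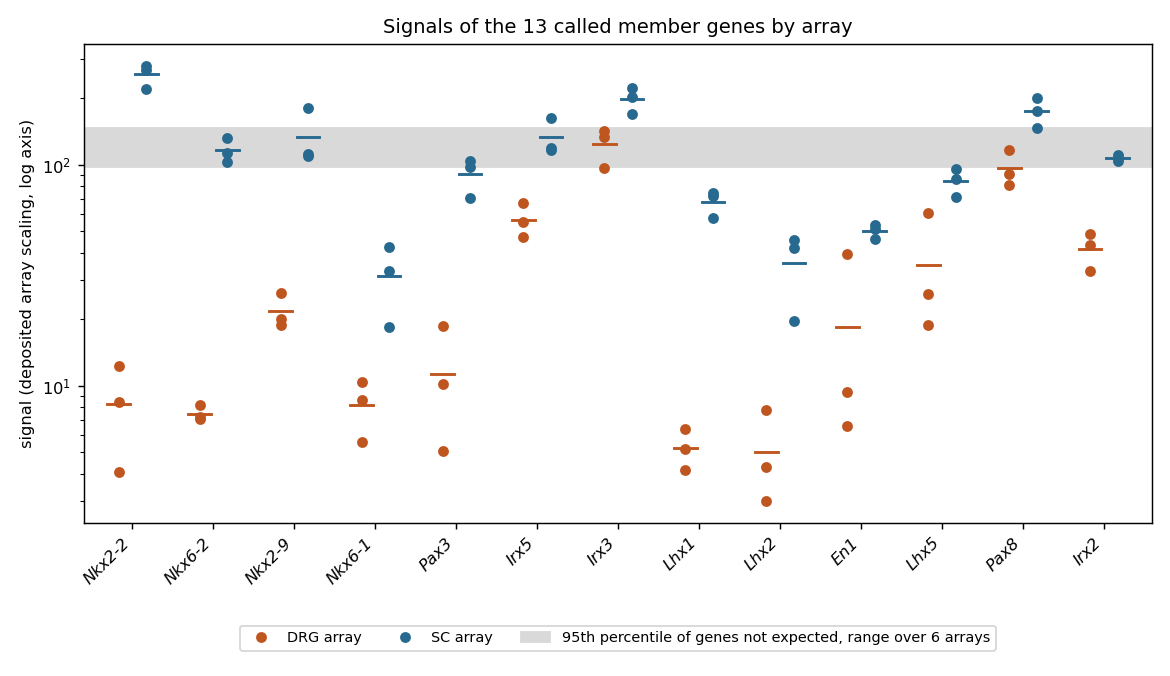
Signals (vertical log axis, arbitrary array units after the authors' scaling) of the 13 called genes, with DRG arrays on the left and SC arrays on the right of each gene, short lines at the mean of 3 arrays, and a grey band over the range of the 95th percentile of genes not expected in these tissues. No gene overlaps between tissues. Nkx2-2, Irx3 and Pax8 lie wholly above the band in SC, and Irx3 and Pax8 have the highest DRG signals.

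Of the 18 members known mainly from other regions or tissues, 1 was lower in DRG than in SC, 0 were higher, and the median log2 difference was 0.05. The called gene was Irx2, an Iroquois factor, with 43.2, 48.7 and 33.0 in DRG and 108, 110 and 104 in SC. Its SC values lay within a few units of each other and apart from DRG, and the difference was -1.11 ± 0.21 (limma adjusted p = 0.0021). Irx1 had 93.1, 94.5 and 111 in DRG and 148, 127 and 133 in SC, without overlap, but its difference of -0.40 did not pass (limma adjusted p = 0.096). It passed before the authors' scaling (0.0077), with the logarithm of the ratio (0.021), without the trend (0.028) and where the mean of the probe sets stood for each gene (0.044). The brightest member in DRG was Nkx2-6, a factor of the pharyngeal region and heart, with 182, 172 and 121 in DRG and 195, 200 and 223 in SC. It did not overlap and was above the level on 2 DRG arrays and all SC arrays, and its difference of -0.36 did not pass (interval -0.75 to 0.03, limma adjusted p = 0.13). These values are from 1443817_x_at, which was among the probe sets treated as matching several transcripts. Without such probe sets Nkx2-6 was called lower in DRG, on the dimmer probe set described further on.

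Nkx6-3, a factor of the gut lining, had 20.9, 7.57 and 34.7 in DRG and 7.19, 5.53 and 7.32 in SC. Its difference was the most positive of the members, 0.64 (interval -0.01 to 1.29, limma adjusted p = 0.11), and without the second DRG array its adjusted p was 0.015. Nkx2-1, a factor of thyroid, lung and ventral forebrain, differed by -0.76 (interval -1.54 to 0.02), and En2, a factor of midbrain and hindbrain, by -0.57 (interval -1.19 to 0.04). Nkx2-3, of spleen and gut, spanned 76.1 to 161 in DRG and 29.4 to 157 in SC, and its interval was the widest of the members at -0.81 to 1.45.

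The sclerotome and cartilage factors Pax1, Pax9 and Nkx3-2 differed by 0.53, 0.40 and -0.11, and none passed. Among 7 cartilage and bone markers 0 were higher in DRG and 1 (Acan) was higher in SC, with sums of 299 to 429 in DRG and 437 to 527 in SC. The heart factors Nkx2-5 and Irx4 differed by 0.30 and -0.04, the forebrain factors Lhx6 and Lhx8 by 0.14 and 0.13, and the pancreatic factor Pax4 by 0.25. Irx6, Nkx2-4 and Nkx1-2 differed by 0.14, -0.11 and -0.27. Each of these 11 uncalled genes had an interval that includes 0, so a difference in either direction is not shown, nor is its absence.

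**Figure D3:**
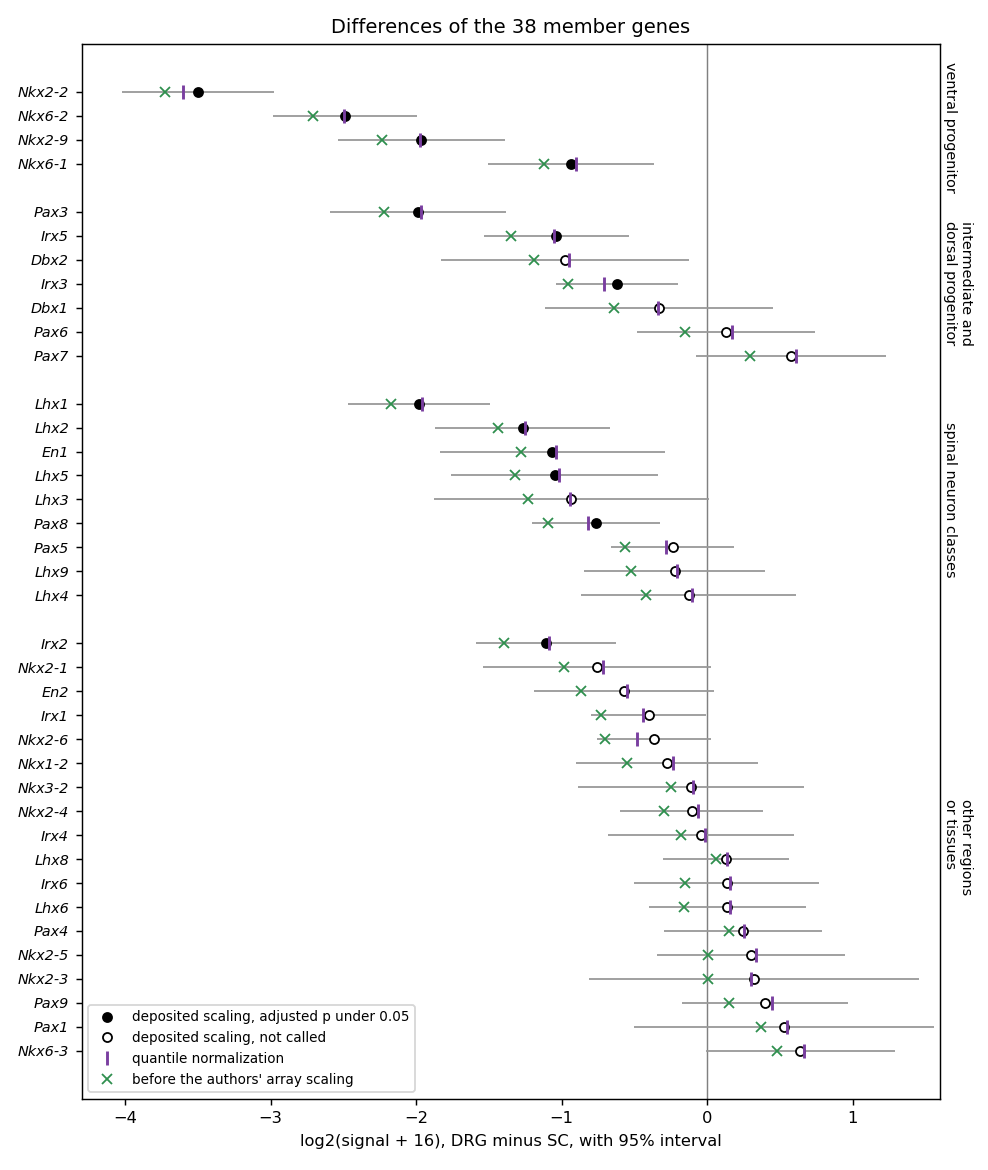
Log2 difference of log2(signal + 16), DRG minus SC (horizontal axis), of the 38 genes in 4 groups by role, with its 95% interval from limma. Filled points are the 13 genes called and open points the others, and bars and crosses give the same difference after quantile normalization and before the authors' scaling. The 4 ventral factors all lie left of 0 and the 18 genes of other regions lie on both sides of it. The groups were chosen with earlier results of these data known.

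Members that are neighbours on a chromosome, with no protein-coding gene between them in RefSeq on GRCm38.p6, shared a call in 1 of 8 neighbouring pairs, Irx3 with Irx5. Nkx2-2 was called (-3.50) while its neighbours Nkx2-4 (-0.11) and Pax1 (0.53) were not. Nkx2-9 (-1.96) lies between Nkx2-1 (-0.76) and Pax9 (0.40), and it alone was called. In the Iroquois clusters, Irx2 (-1.11) was called beside Irx1 (-0.40) and Irx4 (-0.04), and Irx3 (-0.62) and Irx5 (-1.04) were called beside Irx6 (0.14). The difference between neighbours was not tested.

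At the level of probe sets, 16 of the 63 were lower in DRG than in SC and 0 were higher, beside 32.4% of all probe sets called (22.7% higher in DRG, 9.79% higher in SC). At an unadjusted p under 0.05 the members' counts were 1 higher in DRG and 19 higher in SC. For 5 genes only some probe sets were called. Which transcripts each probe set matches was not analysed here.

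Pax6 differed most among its probe sets, with 2 of 5 called. The probe set 1419271_at had 7.05, 23.6 and 30.3 in DRG and 83.6, 106 and 114 in SC, without overlap, a difference of -1.74 ± 0.31 (limma adjusted p = 0.0019). The probe set 1452526_a_at had 4.05, 5.92 and 5.58 in DRG and 46.5, 55.1 and 8.98 in SC, a difference of -1.18 ± 0.37 (limma adjusted p = 0.037). On SC array 3 it was far under the other SC arrays. The brightest by mean log2 value, 1456342_at, had 68.7, 50.03 and 38.9 in DRG and 31.8, 58.2 and 50.2 in SC, which overlap. Its mean signals were 52.5 in DRG and 46.7 in SC. Those of 1419271_at were 20.3 and 101, lower in DRG but higher in SC, so which of them is brighter depends on the scale. The remaining 1437816_at and 1425960_s_at differed by -0.16 and -0.39 and did not pass (limma adjusted p = 0.77 and 0.52). As a mean over all 5 probe sets Pax6 was lower in DRG, by -0.67 (limma adjusted p = 0.020), so whether it was called depended on which probe set stood for it.

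Nkx2-6 was called on its dimmer probe set 1452018_at, with 75.0, 25.9 and 60.2 in DRG and 119, 106 and 137 in SC, a difference of -1.04 ± 0.30 (limma adjusted p = 0.026). Without any single SC array, that adjusted p lay between 0.054 and 0.094. Lhx1, Pax3 and Pax8 were called on their brightest probe set only. The other probe set of Lhx1 had 2.43, 10.3 and 4.30 in DRG and 13.9, 59.7 and 13.8 in SC, which is lower in DRG without overlap (-0.92, limma adjusted p = 0.089). The other probe sets of Pax3 differed by -0.30 and -0.13 and that of Pax8 by -0.0037, with signals of 30.0 to 39.1 in DRG and 24.2 to 48.1 in SC. As a mean of both probe sets, Pax8 was not called (-0.38, limma adjusted p = 0.12).

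Of the other 11 genes with several probe sets, none of them called, 16 further probe sets did not stand for the gene. Their differences ran from -0.69 (Lhx4) to 0.38 (Nkx1-2), none exceeded the level on any array, and the smallest limma adjusted p was 0.25. In 7 genes (Lhx3, Lhx6, Lhx9, Nkx1-2, Nkx2-3, Nkx2-4 and Pax7) at least 1 had the opposite sign to the brightest. The largest such gap was in Lhx3, whose dimmer probe set 1421753_a_at had 43.5, 76.6 and 50.9 in DRG and 28.2, 51.7 and 52.0 in SC, a difference of 0.28 against -0.93 on the brightest, and -0.32 as the mean of both.

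**Figure D4:**
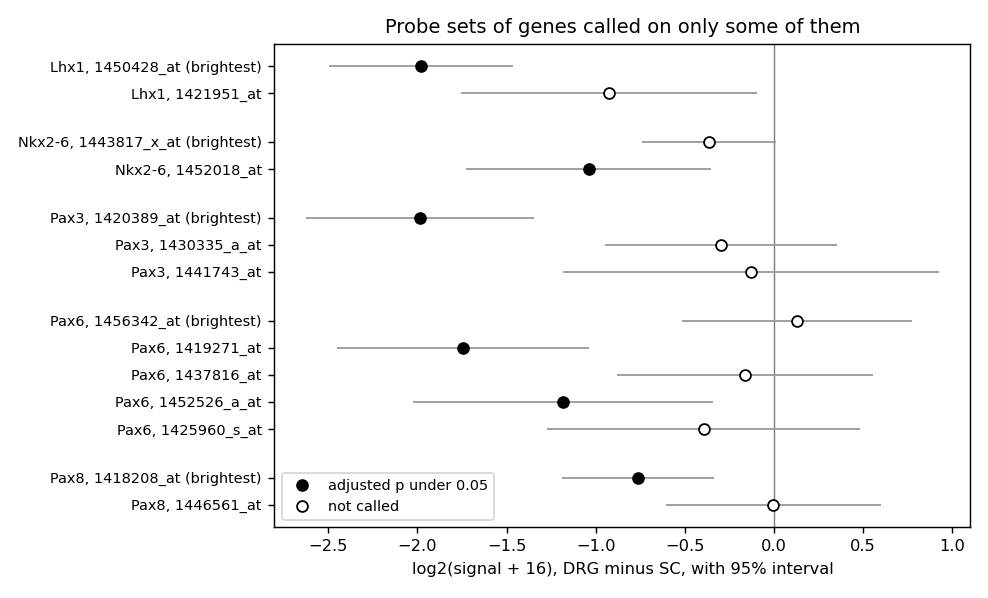
Log2 difference of log2(signal + 16), DRG minus SC, with its 95% interval, for each probe set of the 5 genes called on only some of them; filled points passed the test. Of the 5 Pax6 probe sets, 2 lie near -1.74 and -1.18 while the brightest lies at 0.13.

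The antisense transcripts that the naming rule leaves out were measured too. Lhx1os, transcribed next to Lhx1, had 5.78, 1.97 and 29.0 in DRG and 135, 142 and 111 in SC, a difference of -2.48 ± 0.35 (limma adjusted p = 0.00027). It did not overlap, as Lhx1 did not. Pax6os1 differed by -0.45 and did not pass (limma adjusted p = 0.31).

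Patterning and class factors of other families gave calls in both directions. Of 25 measured patterning factors, 2 passed as higher in DRG and 7 as higher in SC (median of the log2 differences -0.14). Over all genes the shares were 32.7% higher in DRG and 10.2% higher in SC. Before the authors' scaling the factors gave 1 and 8, beside 19.7% and 20.5% of all genes. Olig2, the factor of motor neuron and oligodendrocyte progenitors that borders the Nkx2-2 domain, had at most 2.97 on DRG arrays 1 and 2, where it stood at the lowest deposited ratio, 10.1 on DRG array 3, and 693, 584 and 702 in SC, at least 5.39-fold higher in SC (limma adjusted p = 1e-07). Sox1 (-2.46) and Sox9 (-2.23), of neural progenitors and of glia, were also lower in DRG. Id3, an inhibitor of basic helix-loop-helix factors, was higher in DRG by 1.31. Foxd3, a neural crest factor, was higher by 1.14, a call lost before the authors' scaling (limma adjusted p = 0.077) and without DRG array 3 or SC array 1 or 3 (0.056 to 0.075).

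Of 48 measured interneuron and motor neuron factors of other families, 11 passed as higher in DRG and 13 as higher in SC, and the median was -0.15. These counts depended on the scaling, with 9 higher in DRG and 21 higher in SC before the authors' scaling, and 10 and 16 after quantile normalization. The largest difference was that of Isl1, a LIM homeodomain factor of motor and sensory neurons that is no member by name. It had 2373, 2103 and 2143 in DRG and 46.6, 64.3 and 39.1 in SC, at least 19.5-fold higher in DRG (log2 difference 5.09 ± 0.14, limma adjusted p = 9.0e-09). Onecut2 (3.29) and Isl2 (3.16) were likewise higher in DRG. The dorsal interneuron factors Lmx1b (-1.83) and Lbx1 (-1.72) and the glial factor Nfix (-2.32) were lower in DRG. The LIM genes thus held both the most positive of these differences, Isl1, and members such as Lhx1 at -1.98.

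Of the genes of proteins that LIM factors work with, 9 of 10 exceeded the level on all DRG arrays and 10 on all SC arrays. Of 10 LIM cofactors, 5 were higher in DRG and 3 higher in SC, beside 32.7% and 10.2% of all genes, with a median of 0.40. Ldb2, which bridges LIM factors into complexes, had 1524, 1413 and 1466 in DRG and 240, 223 and 244 in SC (log2 difference 2.56 ± 0.08, limma adjusted p = 1.3e-08). Its relative Ldb1 differed by 0.33 and did not pass, and before the authors' scaling by -0.02. Lmo3, a LIM-only protein that competes for these bridges, had 65.7, 76.4 and 57.5 in DRG and 346, 333 and 309 in SC, at least 2.70-fold higher in SC. The other calls were Ssbp3 (0.86), Rlim (0.61), Ssbp2 (0.59, but -0.012 as the mean of its probe sets) and Lmo1 (0.47), higher in DRG, and Lmo2 (-0.59) and Ssbp4 (-0.26), lower in DRG, while Lmo4 (-0.20) did not pass. These counts depended on the scaling, and both quantile normalization and the signals before scaling gave 2 higher in DRG and 4 higher in SC. Calls of the smaller differences were lost without single arrays in limma, Lmo2 without DRG array 1 or 2 or SC array 1 or 3 (adjusted p = 0.074 to 0.10) and Ssbp4 without any array (0.051 to 0.15).

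Among the 5 measured Groucho corepressors, through which many Nkx and Pax proteins repress, 3 were higher in DRG (Tle1 by 1.45, Tle4 by 0.86 and Tle6 by 0.72) and 1 was lower (Tle2, -0.64). Before the scaling the corepressors gave 2 higher in DRG and 1 higher in SC, with Tle6 lost (limma adjusted p = 0.23), as it was without DRG array 1 or 3 or SC array 1 or 2 (0.11 to 0.14). Of 11 measured Hedgehog pathway genes, 3 were higher in DRG and 4 higher in SC, beside the same shares of all genes. Before the scaling these 11 genes gave 2 and 6. Shh itself, the ligand that induces the ventral factors in the embryo, had 921, 1040 and 990 in DRG and 502, 350 and 296 in SC (log2 difference 1.36 ± 0.16, limma adjusted p = 9.8e-05), and the coreceptors Boc (0.86) and Gas1 (0.61) were also higher in DRG. The inhibitor Hhip (-1.41) and the effectors Gli3 (-1.09) and Gli2 (-1.02) were lower in DRG, and the call of Gli2 was lost without DRG array 1 (limma adjusted p = 0.053) or SC array 1 (0.060), and that of Gas1 before the scaling (0.15). The ligand and the ventral Nkx genes thus differed in opposite directions in the adult tissues.

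Markers of further cell types were measured beside these lists. Of 8 fibroblast and meningeal markers, 5 were higher in DRG and 0 lower (1, Ptgds, after quantile normalization), with sums of 22060 to 23639 in DRG and 8544 to 10290 in SC. Of 6 ependymal markers, 1 was higher in DRG (Rarres2 by 2.30, but -0.70 without probe sets of several transcripts) and 2 lower (Ccdc153 and Tmem212), with sums of 613 to 885 in DRG and 575 to 691 in SC. Their part in the members' differences was not tested.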

How the data were processed

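The study measured lumbar DRG and SC, 3 arrays each, each from a pool of 4 mice. The authors computed signals with MAS5, per the submitters' processing notes, and deposited linear ratios in place of the signals assumed when the tests were chosen. From the values, a deposited ratio is a MAS5 signal divided by an array factor and then by the median of its probe set (median 1 in 91.8% of probe sets) or, in the other 8.21%, whose median lies under 1, by a fixed value. No other step is stated there, and the method is otherwise not given in the sources. Signals were recovered because MAS5 writes steps of 0.1, for 45087 of 45101 probe sets and every member. In simulated probe sets 98.6% were exact, 1.38% carried a common factor and 0% had another error. These were made from recovered probe sets with the same inferred steps, and those with values at the floor were left out. The simulation therefore cannot show whether the inferred steps are right.

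Names came from the platform annotation through RefSeq symbols (34945 probe sets with a single gene). The difference DRG minus SC of log2(signal + 16) was tested with limma 3.58.1 in R 4.3.3 (trend, two-sided, Benjamini-Hochberg over 18191 genes, or over 45023 probe sets, threshold 0.05). Detection calls were not used here, so the level is that of genes not expected. A lower bound sets the SC mean of log2 signals against the mean of that level on the DRG arrays, or the reverse. The number of arrays limits the precision. Every member could be named. Of each other list the up to 3 called genes with the largest difference in each direction, and all LIM cofactors, could be named. Sox10, Pdgfra, Tg and Ptgds were named after their values were seen. The members, their groups and the lists were chosen with earlier results of these data known. Alternatives changed the pseudocount, scaling, value, filter, trend, replicate block, arrays and probe set rule.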

Additional observations from a re-analysis of the deposited data

How the results depend on the processing

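Irx2, Irx5, Lhx1, Lhx2, Nkx2-2, Nkx2-9, Nkx6-2 and Pax3 were called lower in DRG in all 15 alternatives other than the filter at the median signal, which leaves 1 member, tests 0 of the called genes and gives 0 calls (and 2 member probe sets and 11 genes of the comparison lists higher in SC). The count of members higher in SC was 20 before the authors' scaling, with a member median of -0.67, which added Dbx2, En2, Irx1, Lhx3, Nkx2-1, Nkx2-6 and Pax5; the cause of each addition was not tested. It was 9 to 14 on leaving out single arrays, with 0 to 1 higher in DRG (Nkx6-3, without the second DRG array). Of the member probe sets, 10 to 15 were then higher in SC, the lowest count without the second SC array, and 0 to 1 higher in DRG. With the logarithm of the ratio the count was 12, without En1 (adjusted p = 0.081) and Lhx5 (0.051) and with Irx1 (0.021). In that setting 40.8% of all genes were called (31.1% higher in DRG, 9.66% higher in SC). The count of members was 14 without the trend, adding Irx1 (0.028), and 14 without probe sets of several transcripts, adding Nkx2-6. It was 15 with the mean of the probe sets, adding Irx1 (0.044), Nkx2-6 and Pax6 and without Pax8. The share over all genes is not given for these settings or for leaving out single arrays.

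Deviations of same-numbered arrays of the tissues correlated by 0.0055, -0.010 and 0.075. Those of unlike numbers correlated by -0.051 to 0.049. Such values cannot tell whether same-numbered pools came from the same mice. With the replicate block 15 members were higher in SC, adding Lhx3 and Nkx2-1, while 42.4% of all genes were called (32.3% higher in DRG, 10.1% higher in SC).

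No called member changed sign in any alternative. Uncalled members that did were Irx4 (0.030 with a pseudocount of 4, 0.20 as log ratio), Irx6 (-0.15), Lhx6 (-0.16) and Pax6 (-0.15) before the scaling, and Nkx2-4 (0.029) and Pax6 (-0.67) as a mean of probe sets. On leaving out single arrays the ranges were -0.28 to 0.26 for Irx4, -0.054 to 0.33 for Irx6, -0.37 to 0.23 for Lhx4, -0.32 to 0.65 for Nkx2-3, -0.45 to 0.16 for Nkx3-2, -0.0082 to 0.92 for Pax1, -0.055 to 0.28 for Pax6, -0.53 to 0.36 for Pax3 1441743_at, -0.42 to 0.046 for Pax6 1437816_at, -0.70 to 0.12 for Pax6 1425960_s_at and -0.15 to 0.19 for Pax8 1446561_at. The Pax8 probe set 1446561_at gave 0.0046 with a pseudocount of 4, 0.042 after quantile normalization and 0.010 as log ratio. Of list genes, Ighm gave 0.17 and Ssbp2 -0.012 as a mean of probe sets, Ldb1 -0.022 before the scaling and Rarres2 -0.70 without probe sets of several transcripts. The cause of these turns was not tested. Signals near the background level limit what the arrays show of the members.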
